A study of Mus musculus with 12 samples.

Results

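The genes described here belong to the antigen receptor machinery of T cells and to its naive state. They are Cd3d, Cd3e and Cd3g, which encode the CD3 chains of the T cell receptor complex, the coreceptor genes Cd4 and Cd8a, the surface receptors Cd5 and Cd28, the kinase Lck, and Tcf7 and Lef1, which encode transcription factors. They were picked by name rather than by a threshold on measured values, although with earlier results of these data known, and consist of the probe sets that the array's gene table assigns to 1 of these 10 symbols alone. This gave 11 probe sets for 8 genes, out of 12393 genes measured. Lck and Tcf7 were not analysed here.

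The CD3 chains carry no antigen specificity of their own. They hold the receptor at the surface and pass its signal into the cell, where Lck, bound to the tails of CD4 and CD8, phosphorylates them. CD28 adds a costimulatory signal and CD5 dampens signalling, while TCF1 (from Tcf7) and LEF1 keep resting T cells in their naive state. Lipopolysaccharide (LPS), a cell wall component of Gram-negative bacteria, is sensed mainly by innate immune cells through Toll-like receptor signalling, and loss of lymphocytes from the spleen is well known in sepsis.

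The series asks how DUSP1, a phosphatase that inactivates MAP kinases, controls the response to LPS. Spleen RNA of 12 mice was hybridised to Affymetrix MOE430A 2.0 arrays, each mouse on its own array. There were 4 groups of 3 mice: DUSP1+/+ (wild-type here) without treatment, DUSP1+/+ at 6 h after an intraperitoneal dose of 10 µg of E. coli LPS per g of body weight, and DUSP1-/- (knockout here) under the same 2 conditions. The labels describe the controls as untreated, so the injection itself is part of every LPS comparison. Strain, age and the structure of the knockout allele are not given in the sources used here.

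Values are intensities on a linear scale, from 6 to 15228 over all probe sets, and arrays are named by group and the replicate number of the labels. Dusp1 gave 479 to 1354 in untreated and 2116 to 2248 in LPS-treated wild-type mice, against 677 to 1528 and 2948 to 4996 in those labelled knockout. Its signal was therefore no lower with the knockout label, and since the sources used here do not say which part of Dusp1 was altered, it does not check the genotypes. Some controls stood apart. The mean log2 intensity of 11 measured erythroid marker genes was 10.16 in knockout control 1 and 9.17 in wild-type control 2, against 5.89 to 7.74 elsewhere. For 11 pancreas genes it was 8.34 in knockout control 3, 11.22 in knockout control 1 and 12.61 in wild-type control 1, against 4.12 to 5.25 elsewhere. The 3′ minus 5′ log2 signal of the actin control probe sets, which grows as RNA degrades, was 1.47 in wild-type control 1 and 0.93 in knockout control 3, against 0.26 to 0.47 elsewhere. For Gapdh it was 0.80 and 0.61, against 0.09 to 0.33. Without these 2 arrays and knockout control 1 together, knockout control 2 was the only knockout control left. In the averaged LPS comparison described below, the log2 difference then moved from -0.43 to -1.01 for Cd8a. For Lef1 it moved from -0.91 to -1.85, and for Cd28 from -0.93 to -0.88. The summed intensity of 4 sex-linked genes was 388 and 122 in wild-type controls 2 and 3, against 1130 to 3980 in the other 10 arrays. Knockout control 1 was also the control with the lowest mean log2 intensity of the 8 T cell genes (6.89, against 7.76 to 8.43 in the other 5 controls) and of 14 B cell marker genes (9.22, against 10.09 to 10.47), and the part of these differences in the results below was not tested.

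After LPS all 8 measured T cell genes had lower mean intensities than in controls in each genotype, but by unequal amounts. Cd3g and Cd5 fell to 22.4% and 19.6% of their control level when the responses of both genotypes were averaged. Cd3d, Cd4 and Cd28 fell to between 46.9% and 52.4%, and Cd3e, Cd8a and Lef1 did not pass the test. Thus 5 of 8 genes fell and 0 rose, where 14.3% of all 12393 genes fell and 8.52% rose in the same comparison (limma, adjusted p under 0.05; no T cell gene had a higher mean with an unadjusted p under 0.05 either). The median log2 difference was -1.0 over the 8 genes and -0.04 over all genes. Shifting each array to the same median moved the median of all genes by 0.17 and the share of falls among all calls from 62.7% to 45.6%. The median of the 8 genes was then -0.83 and 3 of 8 fell, against 1247 of all 12393 genes. In a sample of whole spleen, fewer T cells and less RNA per T cell cannot be told apart.

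**Figure D1:**
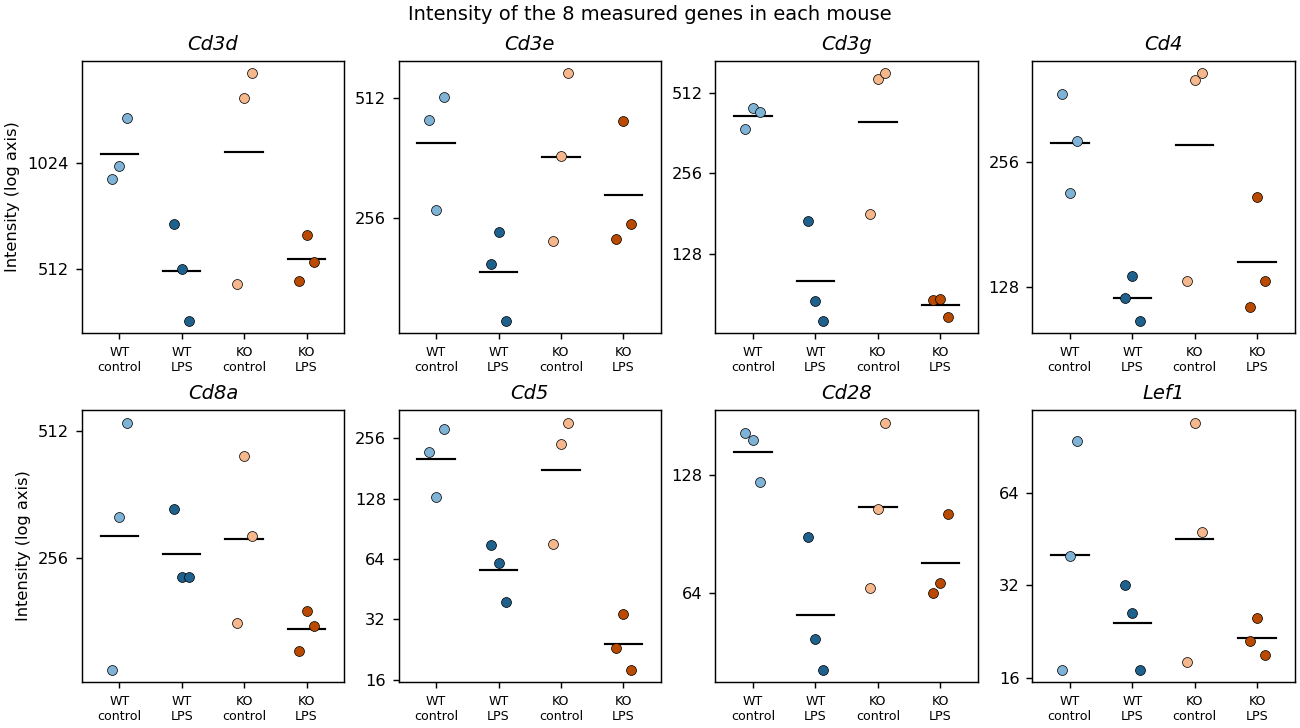
Intensity (log axis) of the 8 measured genes, 1 panel each, with 1 point per mouse and a horizontal line at the geometric mean of each group of 3; WT is DUSP1+/+ and KO is DUSP1-/-. Cd3g and Cd5 show no overlap between the 6 control and 6 LPS mice, and knockout control 1 is the lowest knockout control in every panel.

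Among the CD3 genes, Cd3g (the gamma chain) had the largest difference. In wild-type mice its intensity was 375, 450 and 434 in controls and 170, 85 and 72 after LPS, a mean log2 of 8.71 ± 0.14 against 6.66 ± 0.66 (SD, n = 3). In knockout mice it was 180, 578 and 606 in controls and 86, 87 and 74 after LPS (8.64 ± 0.99 against 6.36 ± 0.13, SD, n = 3). All 6 LPS arrays lay below all 6 controls, although the gap between the nearest pair, 180 in knockout control 1 and 170 in wild-type LPS 1, was small. Cd3g fell by 2.05 ± 0.44 on the log2 scale in wild-type (± is limma's standard error throughout; limma adjusted p = 0.0204) and fell by 2.28 ± 0.44 in knockout spleen (adjusted p = 0.00753). Leaving out any single wild-type control, or LPS array 2 or 3 of that genotype, ended the wild-type call (log2 differences of -2.12 to -1.80), and its adjusted p ran from 0.00194 to 0.194 over 24 alternatives. Averaged over genotypes the difference was -2.16 ± 0.31 (limma adjusted p = 0.000813), and this call stood in all 23 alternatives run.

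Cd3d, which encodes the delta chain, went from 924, 1001 and 1376 in controls to 686, 511 and 364 after LPS in wild-type mice. Knockout mice had 464, 1566 and 1844 as controls and 472, 638 and 535 after LPS. In wild-type mice the groups did not overlap, whereas knockout control 1 lay below all 3 knockout LPS arrays. The log2 difference was -1.11 ± 0.45 in wild-type (limma adjusted p = 0.208) and -1.02 ± 0.45 in knockout (adjusted p = 0.190), and only the average of both passed (-1.06 ± 0.32, adjusted p = 0.0394). That call depended on nearly every array: it was lost without any single one except wild-type LPS 1 and knockout control 1, with log2 differences from -1.12 to -0.88 and a limma adjusted p of up to 0.10. Without knockout control 1 Cd3d fell by 1.37 (limma adjusted p = 0.000770; 0.000770 to 0.191 over all 23 alternatives).

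Cd3e encodes the epsilon chain, which pairs with either of the others. In wild-type mice it read 452, 268 and 515 in controls and 197, 236 and 142 after LPS, again with no overlap. In knockout mice it was 225, 366 and 591 in controls and 227, 448 and 248 after LPS, so that the groups overlapped widely. The wild-type difference was -1.08 ± 0.40 (limma adjusted p = 0.154), the knockout difference -0.32 ± 0.40 (adjusted p = 0.706) and the average -0.70 ± 0.28 (adjusted p = 0.114). None of these passed. The averaged difference passed without knockout control 1 (-0.87, limma adjusted p = 0.0399; 0.0228 to 0.245 over 23 alternatives).

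The 3 CD3 genes are direct neighbours in the order Cd3g, Cd3d, Cd3e in the RefSeq gene table, and Cd3g and Cd3d are read in opposite directions from start sites that lie close together. To set these neighbours beside each other, the 250 bases before each start site are shown, with those of Cd5, the other gene without overlap between all LPS and all control arrays. They are RefSeq sequences on GRCm38.p6, matched by gene symbol and written 5′ to 3′ on the gene's own strand. Capitals mark matches on either strand to 4 motifs. The TCF/LEF motif was searched as CTTTGA. For RUNX factors the letters were TGTGGT. For GATA factors they were AGATAA, and the ETS motif was AGGAAG. No matches in these windows overlap each other. Matches on the other strand therefore appear as their reverse complement.
Cd3g, chr9:44980432-44980681 (minus strand): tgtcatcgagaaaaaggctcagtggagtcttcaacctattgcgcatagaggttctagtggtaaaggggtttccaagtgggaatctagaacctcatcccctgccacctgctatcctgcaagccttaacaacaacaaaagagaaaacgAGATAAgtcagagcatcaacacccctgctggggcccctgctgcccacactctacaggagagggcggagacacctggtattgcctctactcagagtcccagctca
Cd3d, chr9:44981536-44981785 (plus strand): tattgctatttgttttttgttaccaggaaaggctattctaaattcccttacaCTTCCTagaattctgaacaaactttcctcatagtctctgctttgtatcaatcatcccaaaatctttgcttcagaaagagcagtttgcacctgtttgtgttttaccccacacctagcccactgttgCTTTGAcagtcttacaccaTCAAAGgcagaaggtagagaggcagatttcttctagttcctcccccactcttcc
Cd3e, chr9:45009612-45009861 (minus strand): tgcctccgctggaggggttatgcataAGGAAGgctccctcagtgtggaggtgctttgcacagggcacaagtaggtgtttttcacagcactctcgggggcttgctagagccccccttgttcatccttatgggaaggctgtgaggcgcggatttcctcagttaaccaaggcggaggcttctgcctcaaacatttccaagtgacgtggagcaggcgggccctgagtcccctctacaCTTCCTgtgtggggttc
Cd5, chr19:10738975-10739224 (minus strand): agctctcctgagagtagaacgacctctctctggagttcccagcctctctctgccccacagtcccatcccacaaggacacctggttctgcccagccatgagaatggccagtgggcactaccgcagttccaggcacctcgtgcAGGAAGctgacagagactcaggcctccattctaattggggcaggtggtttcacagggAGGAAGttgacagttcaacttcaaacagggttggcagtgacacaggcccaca

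Counting back from -1 at the base before the start site, the Cd3g window held 1 GATA match (-104 to -99) and no other. The Cd3d window held 2 TCF/LEF matches (-73 to -68, and -54 to -49 on the opposite strand) and 1 ETS match (-198 to -193, opposite strand). The Cd3e window held 2 ETS matches (-224 to -219, and -17 to -12 on the opposite strand), and the Cd5 window 2 ETS matches (-109 to -104 and -52 to -47). None of the 4 held the RUNX letters. These short motifs are common: of 32851 RefSeq windows of 250 bases, 13.8% held the TCF/LEF letters, 14.0% the RUNX letters, 9.99% the GATA letters and 29.5% the ETS letters. The matches describe the sequence only.

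The coreceptor genes mark the main lineages of T cells, CD4 for helper and CD8 for cytotoxic cells. Untreated mice gave Cd4 intensities of 373, 215 and 287 (wild-type) and 132, 404 and 419 (knockout). LPS-treated mice gave 120, 136 and 106 (wild-type) and 114, 211 and 132 (knockout). Every wild-type LPS array lay below every wild-type control, while knockout control 1 equalled knockout LPS 3. The log2 difference was -1.24 ± 0.42 in wild-type (limma adjusted p = 0.118) and -0.94 ± 0.42 in knockout (adjusted p = 0.194), and the average passed (-1.09 ± 0.30, adjusted p = 0.0250). Leaving out wild-type control 1, wild-type LPS 3, knockout control 2 or 3, or knockout LPS 1 or 3, each alone, ended the averaged call (-1.05 to -0.95; limma adjusted p 0.00104 to 0.595 over 24 alternatives). The upper end of that range came from another Cd4 probe set, which was dim, with intensities of 17 to 47 (-0.24, limma adjusted p = 0.595).

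For Cd8a the control and LPS groups overlapped in both genotypes. Wild-type mice gave 139, 320 and 537 as controls and 335, 231 and 231 after LPS, so the 3 LPS values lay inside the control range. In knockout mice it was 179, 446 and 288 in controls and 154, 192 and 176 after LPS. Differences were -0.14 ± 0.45 in wild-type (limma adjusted p = 0.930), -0.71 ± 0.45 in knockout (adjusted p = 0.378) and -0.43 ± 0.32 on average (adjusted p = 0.419). The averaged estimate has a 95% interval of -1.13 to 0.28. A difference as large as the Cd4 average therefore lies within it. The estimate also depended on the controls used. Without wild-type control 1 and knockout controls 1 and 3 together, the controls high in pancreas transcripts, it was -1.01. Without wild-type controls 2 and 3 together it was 0.10. Both fits rest on few controls. A further Cd8a probe set gave an average of -0.56 ± 0.22 (limma adjusted p = 0.109), from 229, 196 and 280 to 235, 164 and 163 (wild-type) and from 134, 324 and 315 to 134, 130 and 150 (knockout).

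The log2 difference of Cd4 minus Cd8a within each array tests the coreceptors against each other. A change that lowers both genes by the same factor cancels in it. Wild-type controls gave 1.42, -0.57 and -0.90. The other groups gave -1.48, -0.76 and -1.12 in wild-type LPS arrays, -0.44, -0.14 and 0.54 in knockout controls and -0.43, 0.14 and -0.42 in knockout LPS arrays. The wild-type controls spread widely, and the highest value of the 12 arrays was that of wild-type control 1. That array had the most pancreas transcripts and also the largest 3′ minus 5′ log2 signals of actin (1.47) and Gapdh (0.80). LPS minus control averaged -0.66 (exact permutation test within genotypes, two-sided p = 0.120 over 400 arrangements, the smallest possible p being 0.00500). Without wild-type control 1 it was -0.30 (exact p = 0.205). With the other Cd8a probe set alone, an alternative added after seeing the data, it was -0.53 (exact p = 0.0600). The other Cd4 probe set gave 0.19 (exact p = 0.485), or 0.33 (exact p = 0.270) with both exchanged, but its intensities of 17 to 47 are too dim to settle a direction. None of these values passed.

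Of the surface receptors that tune the T cell signal, Cd5, the inhibitory one, had the lowest averaged estimate of the 8 genes. Wild-type mice went from 217, 131 and 285 to 75, 61 and 39 after LPS (mean log2 7.65 ± 0.57 against 5.81 ± 0.48, SD, n = 3). Knockout mice went from 76, 238 and 306 to 23, 34 and 18 (7.47 ± 1.07 against 4.59 ± 0.46, SD, n = 3). All LPS arrays were below all controls, again narrowly, with 76 in knockout control 1 and 75 in wild-type LPS 1. Cd5 fell by 2.87 ± 0.50 in knockout spleen, to 13.6% of control (limma adjusted p = 0.00433), and fell by 2.35 ± 0.36 on average (adjusted p = 0.00105), a call that stood in all 23 alternatives run. In wild-type spleen the difference of -1.83 ± 0.50 did not pass (limma adjusted p = 0.0562; 0.0116 to 0.230 over 24 alternatives, 7 of which gave a call). The knockout LPS values are close to the dim end of the array, where 30.8% of all values lie under 20, and dim probe sets understate a fall.

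Cd28, the costimulatory receptor, went from 164, 157 and 123 to 89, 49 and 41 in wild-type mice, without overlap. The knockout controls read 66, 105 and 174 and the knockout LPS arrays 64, 68 and 102. Its difference was -1.38 ± 0.38 in wild-type (limma adjusted p = 0.0541), -0.48 ± 0.38 in knockout (adjusted p = 0.500) and -0.93 ± 0.27 on average (adjusted p = 0.0308). The averaged call was fragile, being lost in 16 of 24 alternatives (limma adjusted p 0.00697 to 0.0978). Among them were those without any 1 of wild-type controls 1 and 2, wild-type LPS 2 and 3, knockout controls 2 and 3 and knockout LPS 1 and 2 (-0.94 to -0.75). The other Cd28 probe set, with control and LPS values of 110, 226 and 122 against 132, 38 and 34 (wild-type) and 81, 152 and 87 against 53, 66 and 96 (knockout), gave a like average (-0.97 ± 0.36, limma adjusted p = 0.0839).

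Lef1, the one transcription factor gene among the 8, was dim and variable. Untreated wild-type mice gave 17, 40 and 95. The other values were 32, 26 and 17 in wild-type LPS arrays, 18, 109 and 48 in knockout controls and 21, 25 and 19 in knockout LPS arrays. The highest values were all in controls, but wild-type control 1 and knockout control 1 were as low as the LPS arrays. Its averaged difference was -0.91 ± 0.47 (limma adjusted p = 0.227), with a 95% interval from -1.95 to 0.14. It passed when wild-type control 1 and knockout controls 1 and 3, the controls high in pancreas transcripts, were left out together (-1.85, limma adjusted p = 0.00718, the lowest of 23 alternatives, the highest being 0.788).

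**Figure D2:**
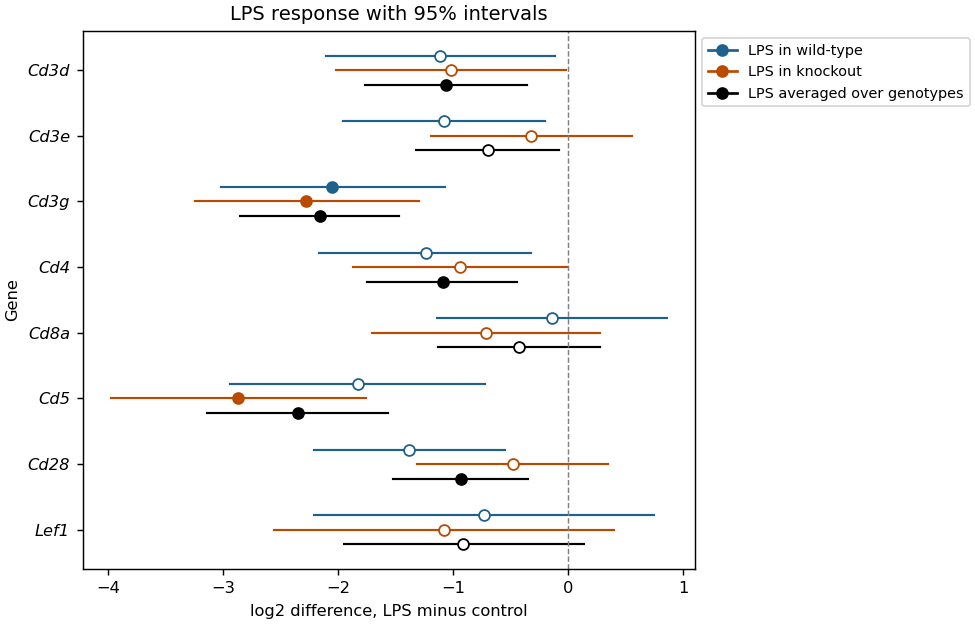
Log2 difference between LPS and control mice for each gene, with its 95% interval, in wild-type, in knockout and averaged over genotypes; filled points passed limma's test at an adjusted p under 0.05. All 24 points lie below 0, and Cd3g is the one gene filled in all 3 comparisons.

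In wild-type spleen 1 of 8 genes fell (Cd3g), against 4.16% of all genes, and 6 of 8 had LPS arrays entirely below the controls, against 14.8% of all genes. In knockout spleen 2 of 8 fell (Cd3g and Cd5), against 9.71%, and the same number had no overlap, against 17.6%. For the average, 2 of 8 had all 6 LPS arrays below all 6 controls, against 6.32%. The median log2 difference was -1.18 in wild-type and -0.98 in knockout spleen, where all genes had medians of -0.03 and -0.06. The average shares its arrays with both, so the 3 comparisons are not independent.

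Knockout control 1, low in all 8 genes and high in erythroid and pancreas transcripts, weighed on the knockout comparison. Without it Cd3d fell by 1.64 (limma adjusted p = 0.00467; 0.00467 to 0.459 over 24 alternatives) and Cd4 fell by 1.49 (adjusted p = 0.00934; 0.00934 to 0.841 over 25), which brought the knockout count to 4 of 8. Cd3g then fell by 2.85 (limma adjusted p = 0.000569) and Cd5 fell by 3.48 (adjusted p = 0.000649). The wild-type estimates did not move, but the spread shared by all groups shrank (for Cd3d the standard error was 0.25 in place of 0.45), and 5 of 8 genes passed there: Cd3d, Cd3g, Cd4, Cd5 and Cd28. How many of all genes passed without knockout control 1 was not counted, so these counts have no share beside them. Leaving out wild-type controls 2 and 3, which differed in sex-linked genes, left 0 calls in wild-type spleen and 2 (Cd3g and Cd5) in the average.

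The estimated falls were not of equal size. Each array was shifted so that the mean log2 of Cd3d, Cd3e and Cd3g was the same in all 12, and the LPS response was fitted again. On this scale Cd5 was lower after LPS (-1.05 ± 0.32, limma adjusted p = 0.00486, in 6 of 6 LPS arrays). Here LPS arrays are counted against the mean of their own genotype's controls, so 6 of 6 does not mean that the groups were separate. Cd3g was lower too (-0.85 ± 0.32, adjusted p = 0.0170, in 6 of 6). As Cd3d, Cd3e and Cd3g make up the reference, their differences cancel by construction, and the value of Cd3g restates its larger fall among the CD3 genes without adding to it. Only 0.565% of all genes were lower on it. Cd8a was higher (0.88 ± 0.35, limma adjusted p = 0.0259, in 6 of 6 LPS arrays), as were 77.4% of all genes, since the reference itself was lower after LPS. With so many genes passing, the adjustment changed limma's p little. Unadjusted, it was 0.00283 for Cd5, 0.0124 for Cd3g and 0.0197 for Cd8a. Without the shift, an unadjusted limma p of 0.00707 (Cd3d, average) became 0.0394. These adjusted p values are therefore weaker evidence than those without the shift. On the shifted scale Cd3d, Cd3e, Cd4, Cd28 and Lef1 had differences of 0.22 to 0.61 that did not pass.

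The shifted calls had limits. Cd3g was lost without wild-type control 2 (-0.78, limma adjusted p = 0.0622) or wild-type LPS 2 (-0.78, adjusted p = 0.0605), with 2.47e-08 to 0.154 over 23 alternatives. Cd8a missed the threshold when wild-type control 1 was left out (0.63, limma adjusted p = 0.127), and likewise for wild-type LPS 3, knockout control 3 and knockout LPS 1 and 3 (0.71 to 0.88), with 0.000494 to 0.209 over 24. Cd5 was lost in 1 of 23 alternatives, without wild-type controls 2 and 3 together (-1.14, limma adjusted p = 0.0508; lowest 1.23e-07). Over the alternatives the Cd8a estimate ran from 0.48, without the controls high in pancreas transcripts together, to 1.37. A ratio within an array shows unequal change only, and says nothing of which gene stayed level.

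**Figure D3:**
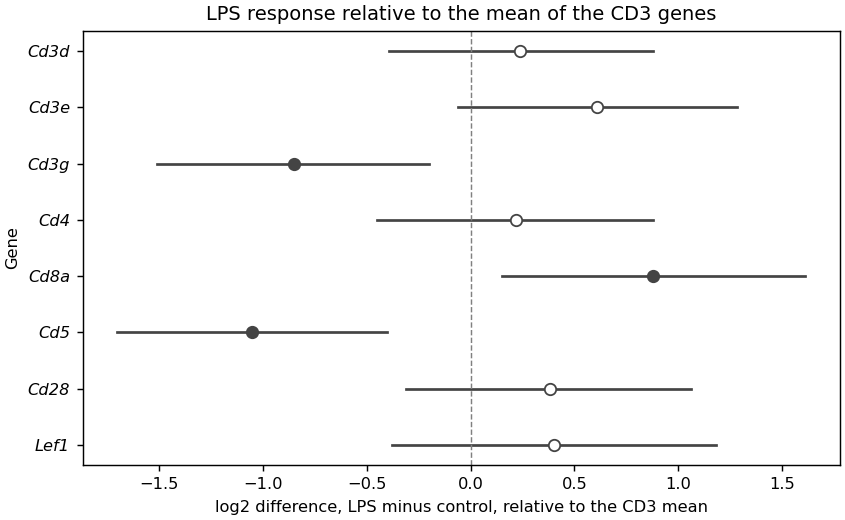
LPS response of each gene, averaged over genotypes, after each array was shifted to the same mean log2 of Cd3d, Cd3e and Cd3g; points are log2 differences with 95% intervals, and filled points passed limma's test at an adjusted p under 0.05. Cd3g (-0.85) and Cd5 (-1.05) lie below 0 and Cd8a (0.88) above it. Cd3g is part of the reference, and adjusted p values on this scale are close to unadjusted ones.

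Across the 12 arrays the genes varied together to different degrees. Pearson's r between a gene and the mean of the other 7 was 0.98 for Cd3d, 0.92 for Cd3g and 0.88 for Cd4 and Cd5. It was lower for Lef1 (0.78), Cd28 (0.74), Cd3e (0.73) and Cd8a (0.58). These values describe 12 arrays that share the 4 groups, so the LPS response is part of them, as is knockout control 1. Outside the set, the 10 genes whose profile over the same 12 arrays was most like the mean of the 8 were Ctsh, Arhgef1 and Vps4a (r of 0.98), and Arhgap45, Foxj2, Ppp1r14a, Dok3, Phf1, S1pr4 and Cers4 (0.97). Ctsh, a lysosomal protease gene, stood at 2040, 2004 and 2658 in untreated wild-type mice, 1241, 1150 and 840 in wild-type LPS arrays, 1327, 2949 and 2761 in knockout controls and 853, 1322 and 1085 in knockout LPS arrays. It showed the same low knockout control 1 as the T cell genes.

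No T cell gene passed between genotypes. In controls the knockout minus wild-type log2 difference ran from -0.46 (Cd28) to 0.18 (Lef1), and 0 of 8 genes passed, as did 0% of all genes (limma; 0 of 8 also at an unadjusted p under 0.05). Every gene had overlapping control groups. The 95% interval for Cd3g, from -1.05 to 0.90, shows how little 3 mice a group resolve. After LPS 0 of 8 passed, against 0.363% of all genes, and 1 (Cd5) was lower at an unadjusted p under 0.05, against 6.16% of all genes. Cd5 was lower in all 3 knockout LPS mice (18 to 34) than in the wild-type LPS mice (39 to 75), a difference of -1.22 ± 0.50 (limma adjusted p = 0.497; 0.0414 to 0.942 over 24 alternatives, with a call under array quality weights alone). Cd8a also showed no overlap after LPS, at 154 to 192 in knockout against 231 to 335 in wild-type arrays (-0.59 ± 0.45, limma adjusted p = 0.849). Of all genes 9.60% were lower without overlap in this comparison. Cd3e leaned the other way (0.64 ± 0.40, adjusted p = 0.766).

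The interaction asks whether the LPS response itself differed between genotypes. It passed for 0 of 8 T cell genes and for 0% of all genes (limma; at an unadjusted p under 0.05, 0 of 8 T cell genes, and 493 lower and 307 higher estimates over all genes). Its log2 estimates ran from -1.04 ± 0.71 for Cd5, a larger difference in knockout mice, to 0.90 ± 0.53 for Cd28, a smaller one. The 95% intervals, -2.61 to 0.53 for Cd5 and -0.27 to 2.07 for Cd28, are wide, so that sizeable differences between the genotypes' responses were not detectable with 3 mice a group.

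Next came the signalling partners of the receptor. Of 21 measured genes of 27 listed, 5 fell and 1 rose on average, where 14.3% of all genes fell and 8.52% rose. The median difference was -0.15, against -1.0 for the 8 T cell genes. Grap2, an adaptor that joins SLP-76 to LAT, had control intensities of 52 to 162 and LPS intensities of 26 to 31 (-1.70 ± 0.20, limma adjusted p = 0.000202). Nfatc3, an NFAT transcription factor gene, went from 315 to 595 in controls to 235 to 374 after LPS (-0.83 ± 0.15, adjusted p = 0.00319). Lcp2, which encodes SLP-76 itself, was higher, at 615 to 1093 against 225 to 627 (0.84 ± 0.24, limma adjusted p = 0.0324). Trat1, a receptor-associated adaptor gene, passed at intensities of 20 and below in every array (-0.64 ± 0.18, adjusted p = 0.0278), where signal and background are hard to separate.

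The other falls, named after their values were seen, were those of Lat, the membrane scaffold of the receptor signal (-1.05 ± 0.32, limma adjusted p = 0.0442), and Sit1, an inhibitory adaptor gene (-1.31 ± 0.38, adjusted p = 0.0332). Also named after its values were seen, Cd247, the zeta chain of the same receptor complex, had an average of -0.23 ± 0.33 (limma adjusted p = 0.710) and intensities of 109 to 170 after LPS against 179 to 314 in wild-type controls, but 179 to 204 against 69 to 314 in knockout mice. The list's count was 2 without wild-type control 1, wild-type LPS 2 or knockout LPS 3, and 3 without wild-type control 2, wild-type LPS 3, knockout controls 2 or 3 or knockout LPS 1. It was 10 without knockout control 1. Lcp2 lost its call without any 1 of wild-type controls 1 and 2, wild-type LPS 1 and 2 and knockout LPS 2 and 3 (0.72 to 0.85, limma adjusted p of up to 0.0720). Trat1 lost it without wild-type controls 1 or 2, wild-type LPS 2 or 3, knockout controls 2 or 3 or knockout LPS 1 or 3 (-0.65 to -0.54).

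Further genes of T cells and of their naive state gave 5 falls and 1 rise among 25 measured of 26 listed, with a median of -0.31. Over all genes 14.3% fell and 8.52% rose. Thy1, a surface glycoprotein of mouse T cells, stood at 646, 417 and 898 in untreated wild-type mice, 99, 77 and 96 in wild-type LPS arrays, 178, 794 and 1091 in knockout controls and 67, 189 and 82 in knockout LPS arrays (-2.60 ± 0.43, limma adjusted p = 0.00192). That is a fall of the order of Cd3g and Cd5, with overlap again at knockout control 1. Dgka, a lipid kinase gene that restrains receptor signalling, went from 401 to 1480 in controls to 168 to 446 after LPS (-2.15 ± 0.33, adjusted p = 0.00117). Igfbp4, an insulin-like growth factor binding protein gene, went from 2026 to 3332 to 587 to 1973 (-1.31 ± 0.22, limma adjusted p = 0.00174). Cd27 (-1.82 ± 0.38, adjusted p = 0.00679) and Cd96 (-1.24 ± 0.27, adjusted p = 0.00857), both receptor genes and both named after their values were seen, complete the falls.

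Ccr7, the receptor that guides naive T cells and mature dendritic cells to lymphoid tissue, rose. The untreated wild-type mice had 413, 483 and 943. The other values were 2198, 2018 and 2502 in wild-type LPS arrays, 260, 939 and 846 in knockout controls and 3117, 2470 and 2113 in knockout LPS arrays. Its averaged difference was 2.03 ± 0.32 (limma adjusted p = 0.00143). Every LPS array lay above every control, opposite to the T cell genes. Among 9 measured dendritic cell markers 4 rose and 3 fell, with a median of -0.28, where 8.52% of all genes rose and 14.3% fell. Their summed intensities, in which bright genes weigh most, were 5349 to 5953 in wild-type and 5260 to 6196 in knockout LPS arrays. In controls they were 3225 to 4902 and 2398 to 4562. Without knockout control 1 the number of calls among the further genes of T cells and their naive state went from 6 to 10.

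Among genes induced on T cell activation, 10 of 19 measured of 20 listed rose in limma's test, against 8.52% of all genes. Another 9 did not pass and 0 fell, with a median of 0.79. At an unadjusted limma p under 0.05, 12 were higher and 0 lower. Il2 (-0.22 ± 0.16), Icos (-0.40 ± 0.32) and Cd40lg (-0.10 ± 0.12), named after their values were seen, did not pass. They were the 3 genes of the list with lower averages, and Il2 and Cd40lg were dim. Which spleen cells gave the rises was not tested. Ifng, the interferon gamma gene, also expressed by natural killer cells, read 12 to 18 in controls and 115 to 438 after LPS (3.87 ± 0.25, limma adjusted p = 5.85e-06). Il2ra, the high-affinity chain of the interleukin-2 receptor, read 16 to 35 in controls, 94 to 193 in wild-type LPS arrays and 356 to 645 in knockout LPS arrays (3.50 ± 0.24, adjusted p = 9.23e-06). Its knockout LPS values were all above the wild-type ones, but that difference did not pass (1.74 ± 0.35, limma adjusted p = 0.0780). Tnfrsf9 (4-1BB), a costimulatory receptor, went from 27 to 108 to 403 to 723 (2.97 ± 0.29, limma adjusted p = 7.24e-05) and Tnfrsf4 (OX40), of the same family, from 150 to 287 to 634 to 913 (1.81 ± 0.18, adjusted p = 9.67e-05).

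Of 15 partners of TCF and LEF factors in the Wnt pathway 2 rose and 2 fell, where 8.52% of all genes rose and 14.3% fell. Their median was -0.34 against -0.04 for all genes. At an unadjusted p under 0.05, 7 were lower and 3 higher. Tle2, a Groucho corepressor gene, read 27 to 53 in controls and 14 to 23 after LPS (-1.21 ± 0.19, limma adjusted p = 0.00135). Tcf7l1, a relative of Lef1, went from 37 to 96 to 19 to 38 (-1.25 ± 0.26, adjusted p = 0.00711). Other Groucho genes went up, Tle1 from 59 to 104 to 95 to 155 (0.61 ± 0.16, limma adjusted p = 0.0196) and Tle3 from 226 to 683 to 508 to 1001 (0.87 ± 0.27, adjusted p = 0.0404). Tle1 lost its call without wild-type LPS 2 (0.55, limma adjusted p = 0.0530). Tle3 lost its call without any single array except wild-type control 3, wild-type LPS 1 and knockout control 3 (0.71 to 0.94, limma adjusted p of up to 0.10). The number of calls was 2 without wild-type LPS 2 and 7 without knockout control 1.

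**Figure D4:**
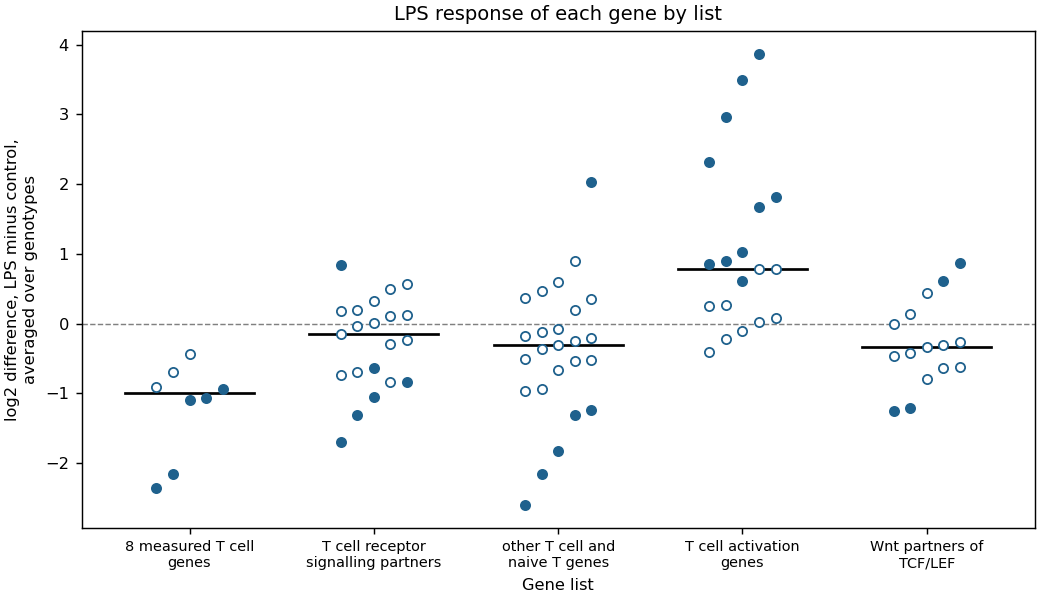
Log2 difference between LPS and control, averaged over genotypes, for each gene (point) of 5 lists, with the list's median as a line; filled points passed limma's test at an adjusted p under 0.05. The 8 T cell genes all lie below 0 (median -1.0), the activation genes reach 3.87 (Ifng), and the other lists spread to both sides.

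Some markers of other spleen cells moved as well, in the averaged comparison where 14.3% of all genes fell and 8.52% rose. Of 14 measured B cell markers 5 fell and 1 rose (median -0.70), with summed intensities of 20894 to 29490 in wild-type controls, 14696 to 18620 in wild-type LPS arrays, 11251 to 25457 in knockout controls and 14502 to 15650 in knockout LPS arrays. Of 13 monocyte and macrophage markers 7 fell and 3 rose, from sums of 18044 to 20107 to 12395 to 13218 in wild-type and from 16899 to 19978 to 15498 to 18017 in knockout mice. Of 10 stromal markers 5 fell, of 12 endothelial markers 3 fell and 1 rose, of 10 NK cell markers 3 fell and 1 rose, and of 12 neutrophil markers 1 rose. Of 11 erythroid, 8 liver, 7 lung and 4 sex-linked genes 0 passed in limma's test, nor did any have an unadjusted p under 0.05. Of 11 pancreas genes 1 fell, with a median of -3.58, and the arrays high in them were all controls. At an unadjusted limma p under 0.05, 8 of the 11 were lower, against 2693 of all 12393 genes. Among 7 thymus and lymph node markers 1 rose and 1 fell. No marker was listed at 0. Knockout control 1 had the lowest mean log2 intensity of the 6 controls not only for the T cell genes and B cell markers but also for stromal (8.09, others 8.29 to 8.87), endothelial (6.92, others 7.07 to 7.53) and NK cell markers (6.45, others 6.65 to 7.27), lists that had falls after LPS as well. It was also the lowest for dendritic cell markers (6.54, others 6.85 to 7.30). The part of these lists in the results on T cell genes was not tested.

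**Figure D5:**
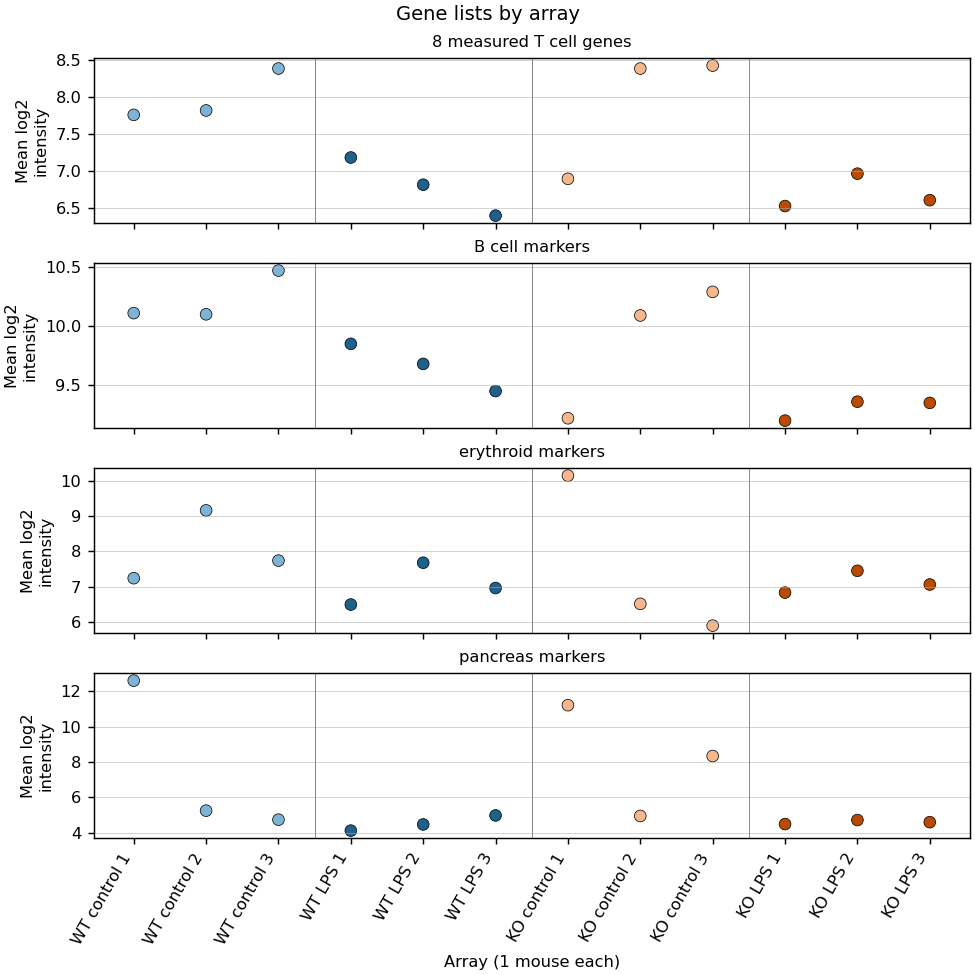
Mean log2 intensity in each of the 12 arrays of the 8 T cell genes and of B cell, erythroid and pancreas markers, each panel with its own scale. The T cell mean is 7.76 to 8.43 in 5 controls, 6.89 in knockout control 1 and 6.39 to 7.18 after LPS; knockout control 1 has the highest erythroid mean (10.16).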

How the data were processed

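Spleen RNA of 12 individual mice was measured on 1 Affymetrix MOE430A 2.0 array each, with 5 µg of total RNA labelled. The authors normalised the scans with RMA from the affy package, per the series' design text and the submitters' processing notes, with the version not given in the sources used here. Each deposited value is a linear-scale intensity of a probe set, rounded to a whole number. Array medians were 47 to 63, so scaling between arrays was also varied. Precision is limited by the number of arrays and by dim signals.

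Groups came from the sample titles, which number individual mice. Values were log2-transformed, 64 control probe sets were left out, and 22626 were fitted with limma 3.58.1 in R 4.3.3 (lmFit with 4 group means, eBayes, 8 residual and 2.72 prior degrees of freedom). P-values were two-sided and adjusted by Benjamini-Hochberg over all 22626 probe sets in each of 6 contrasts, with a threshold of 0.05. The platform's gene table named 1 gene for 20380 probe sets, several for 691 and none for 1555. A gene's brightest probe set on average stood for it, with _x_at sets used only where no other existed. Figures were drawn with matplotlib 3.10.9.

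The members, lists and tests were chosen with earlier results of these data known. Named were all members, up to 4 called genes per pathway list by smallest p in the averaged LPS contrast, the 10 genes closest in profile, and Dusp1. Other genes are said to be named after their values were seen. Promoter windows came from RefSeq tables on GRCm38.p6. The alternatives were other scalings, a floor at 20, a filter at the 40th percentile, other eBayes and weight settings, a replicate block, fits on the compared groups only, the other probe set of a gene, and leaving out arrays singly and in 3 sets. Exchanging 1 coreceptor probe set at a time, and applying the alternatives to the list counts and to named genes outside the members were decided after seeing the data.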

Additional observations from a re-analysis of the deposited data

How the results depend on the processing

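The falls of Cd3g and Cd5 averaged over genotypes passed in all 23 alternatives run. Other counts and signs moved, and except where stated the cause was not tested. Shares over all genes were not counted for these settings, apart from the scalings. The number of the 8 genes called in wild-type spleen (1) was 0 with values under 20 set to 20 and without wild-type controls 2 and 3, and 2 with trended, robust eBayes. It was 3 with the filter at the 40th percentile, with a fit on the compared groups only and without the erythroid-high controls, and 5 with array quality weights (0 to 5 leaving out single arrays). In knockout spleen (2) it was 4 with array quality weights and without the erythroid-high controls and 6 without the pancreas-high controls (2 to 4 leaving out single arrays). For the average (5) it was 3 with arrays at the same median and with the other probe set of a gene, and 2 with values under 20 set to 20 and without wild-type controls 2 and 3 (2 to 6 leaving out single arrays). Between genotypes after LPS (0) it was 1 with array quality weights, and relative to CD3 (3) it was 6 with array quality weights and 1 without wild-type controls 2 and 3.

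Receptor signalling partners (6 calls) gave 3 with arrays at the same median, 2 with values under 20 set to 20, 10 with array quality weights, 3 without wild-type controls 2 and 3, and 2 to 10 leaving out single arrays. Other T cell and naive genes (6) gave 10 with array quality weights and without the pancreas-high controls, 12 without the erythroid-high controls, and 6 to 10 leaving out single arrays. Wnt partners (4) gave 10 with array quality weights, 2 without wild-type controls 2 and 3, and 2 to 7 leaving out single arrays. Of named genes outside the members, Lcp2 lost its call in 10 of 23 alternatives, Trat1 in 12 of 22, Tle3 in 13, Tle1 in 4 and Tcf7l1 in 1 of 23.

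These signs turned, all in estimates that did not pass. Without wild-type controls 2 and 3, Cd8a was 0.91 and Lef1 0.51 in wild-type spleen, Cd8a 0.10 on average, Cd4 -0.01 relative to CD3, Cd3g 0.09 and Cd8a 1.03 between controls, and the Cd3d interaction -0.14. Without the pancreas-high controls, Lef1 was -0.35 relative to CD3, Cd3g 0.39, Cd4 0.70, Cd8a 0.11 and Cd5 0.30 between controls, and the interaction -0.30 for Cd3d and -0.41 for Cd4. Without the erythroid-high controls, Cd3g was 0.55, Cd4 0.33, Cd8a 0.39 and Cd5 0.12 between controls, and the interaction -0.48 for Cd3d and -0.04 for Cd4. Array quality weights gave 0.14 for Cd3e, 0.01 for Cd3g, 0.15 for Cd4 and 0.07 for Cd5 between controls, and interactions of -0.02 for Cd3d and -0.06 for Cd4. Cd3d between controls was -0.03 with arrays at the same median, Cd8a between controls 0.04 and Cd4 minus Cd8a 0.33 with the other probe sets (0.19 with that of Cd4 alone, which is dim).

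Leaving out single arrays gave ranges across 0 between controls for Cd3d (-0.35 to 0.65), Cd3e (-0.47 to 0.23), Cd3g (-0.38 to 0.50), Cd4 (-0.30 to 0.53), Cd8a (-0.54 to 0.43), Cd5 (-0.58 to 0.43) and Lef1 (-0.45 to 0.85). After LPS it did so for Cd3d (-0.12 to 0.34), Cd3g (-0.55 to 0.07) and Lef1 (-0.42 to 0.03), and for the interaction of Cd3d (-0.54 to 0.46), Cd3g (-0.80 to 0.14), Cd4 (-0.24 to 0.59) and Lef1 (-1.02 to 0.28). The LPS difference ran from -0.66 to 0.31 for Cd8a in wild-type and from -0.67 to 0.03 for Cd3e in knockout spleen.

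Residual correlations between mice with the same replicate number were -0.08 to 0.14 for number 1. They were -0.29 to 0.63 for number 2 and -0.58 to 0.28 for number 3. Their signs were mixed, but with 3 mice a group they do not settle whether the numbers pair mice. With the replicate number as a block the counts were 1, 2 and 4 of 8 genes in wild-type, knockout and averaged LPS responses and 2 relative to CD3; Cd28 (-0.93, limma adjusted p = 0.0547) and Cd3g relative to CD3 (-0.85, adjusted p = 0.0569) were no longer called.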
